A study of Mus musculus with 2 samples.

Results

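The miR-297, miR-466, miR-467 and miR-669 families are groups of closely related, rodent-specific microRNAs (miRNAs). They were taken here as every mouse miRNA on the array whose name begins with one of these 4 family numbers, which gave 61 of the 1023 mouse miRNAs measured. Of these, 4 belonged to the miR-297 family, 22 to miR-466, 12 to miR-467 and 23 to miR-669. They were read by 162 of the 2780 miRNA probes on each array, in 2440 of 43200 spots. Most of the members lie in tandem hairpin repeats within an intron of Sfmbt2, an imprinted gene that encodes a Polycomb-related protein needed for placental growth. Many of the mature sequences are runs of alternating G and U, or of the complementary A and C, and neighbouring copies often differ by a single base. As for other miRNAs, the bases near the 5′ end, called the seed, guide the pairing with target mRNAs. The cluster is best known in mice from embryonic stem cells and placenta.

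Total RNA was prepared from the quadriceps (thigh) muscle of females that were 15 to 16 weeks old. One sample is labelled wild-type (WT). The NF90-NF45 double transgenic sample (dbTg) carried transgenes for NF90 and for NF45. NF90 and NF45 form a complex that binds double-stranded RNA and is known to hinder the cutting of primary miRNA transcripts. The comparison asked how levels of mature miRNAs in this muscle differ between the 2 genotypes. There was 1 single-colour array per genotype, so no statistical test was possible and every difference compares 2 RNA samples. Whether a sample was 1 animal or a pool is not stated in the labels, and neither are the promoters of the transgenes or the strain. Standard deviations (SD) are between spots of a probe on 1 array, and spot standard errors (spot SE) have the same source, so they leave out the spread between animals.

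Per the file headers, the arrays shared their design, slide and scan. Detection of a probe needed at least 0.5 of the spots kept to be well above background, and detection of a miRNA needed at least 1 such probe. The dbTg array was the brighter one. The 75th percentile of the probes detected on both arrays was 882 on WT and 1220 on dbTg, a ratio of 1.38, and each array was divided by it to give a relative signal. Intensities below are scanner values before that division, after the background subtraction, so they can be negative. All 4 muscle markers (miR-1, miR-133a, miR-133b and miR-206) were detected on WT and on dbTg. Their summed relative signal was 315 on WT and 178 on dbTg, with log2 ratios of -0.93, -1.14, -0.94 and 4.11 in that order. All 3 markers of liver or brain (miR-122, miR-124 and miR-9) were undetected on both. All 4 markers of blood cells (miR-142-3p, miR-223, miR-150 and miR-451) were detected on both arrays. The blood markers' summed relative signal was 3.44 on WT and 4.11 on dbTg, with log2 ratios from -0.29 for miR-451 to 2.23 for miR-142-3p. The part of either marker list's shift in the values of the family members was not tested. In such tissue RNA, fewer cells of a type and less of a miRNA per cell cannot be told apart.

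The probes of the 2 members that were detected are printed first, since the results turn on them. Each is written 5′ to 3′ as DNA that pairs with the miRNA, in lower case, with its longest alternating stretch of C and A or of G and T in capitals.
miR-466i-5p, 15 bases: CACACACACACACAC
miR-466i-5p, 16 bases: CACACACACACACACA
miR-467b*, 13 bases: gtgttgGTGTGTG
miR-467b*, 14 bases: gtgttgGTGTGTGT
miR-467b*, 15 bases: gtgttgGTGTGTGTa
miR-467b*, 16 bases: gtgttgGTGTGTGTat
The probes of miR-466i-5p consist of the repeat alone, while those of miR-467b* begin with bases outside it. The asterisk is the older mark for the less abundant arm of a hairpin.

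The files place the 16-base probe of miR-466i-5p on chromosome 13 at 17839361 to 17839376 of the mm9 build, plus strand, and also at a match shifted along the same repeat. They place the 16-base probe of miR-467b* on chromosome 2 at 10402927 to 10402941, plus strand, a span 1 base shorter than the probe. That position is in the Sfmbt2 cluster, where the probes of 55 members lay between 10388309 and 10439867, a span of 51559 bases. Of these 55, 3 (miR-669b, miR-669l and miR-669n) also had places on other chromosomes, so their signal cannot be assigned to the cluster alone. The other 6 members (miR-466i-5p, miR-466i-3p, miR-466j, miR-466k, miR-467f and miR-467g) were placed only on other chromosomes. For 41 members the longest probe had 1 place in the genome, and the largest number was 15 places, for miR-466b-3p. In the RefSeq gene table, 72 of 82 miRNA genes of these families lay inside the span of Sfmbt2.

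RefSeq (GRCm38.p6) held a mature sequence for 6 of the 61 members. It places these on chromosomes 3, 5, 10, 11 and 13, none of them in the Sfmbt2 cluster, and none is of the miR-297 family. The seed, bases 2 to 8, is in capitals.
miR-466i-3p: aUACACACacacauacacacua
miR-466j: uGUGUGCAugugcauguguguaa
miR-466k: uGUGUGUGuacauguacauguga
miR-467f: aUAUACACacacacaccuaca
miR-467g: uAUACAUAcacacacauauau
miR-669n: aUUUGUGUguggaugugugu
The 6 members had 6 different seeds, so none of them was grouped with another by its seed. The seeds of the remaining members were not compared, so sharing of seeds within the families or the cluster was not assessed. None of the 6 was detected on either array.

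Nearly all members of the 4 families were dark in quadriceps of both genotypes. Of the 61, 1 was detected on both arrays (miR-466i-5p), 1 on the WT array alone (miR-467b*), 0 on the dbTg array alone and 59 (96.7%) on neither. Over all 1023 mouse miRNAs, both arrays detected 17.1%, WT alone 0.489%, dbTg alone 3.52% and neither 78.9%. The 962 other mouse miRNAs held 174 detected on both (18.1%) and 748 on neither (77.8%). Of the members' spots that were kept, 74 of 2339 (3.16%) were well above background on WT and 48 of 2349 (2.04%) on dbTg. The other mouse miRNAs had 15.9% and 18.9% of their kept spots above background. The members therefore held fewer detected miRNAs than the array as a whole, which is a count on these 2 samples and not a test.

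**Figure D1:**
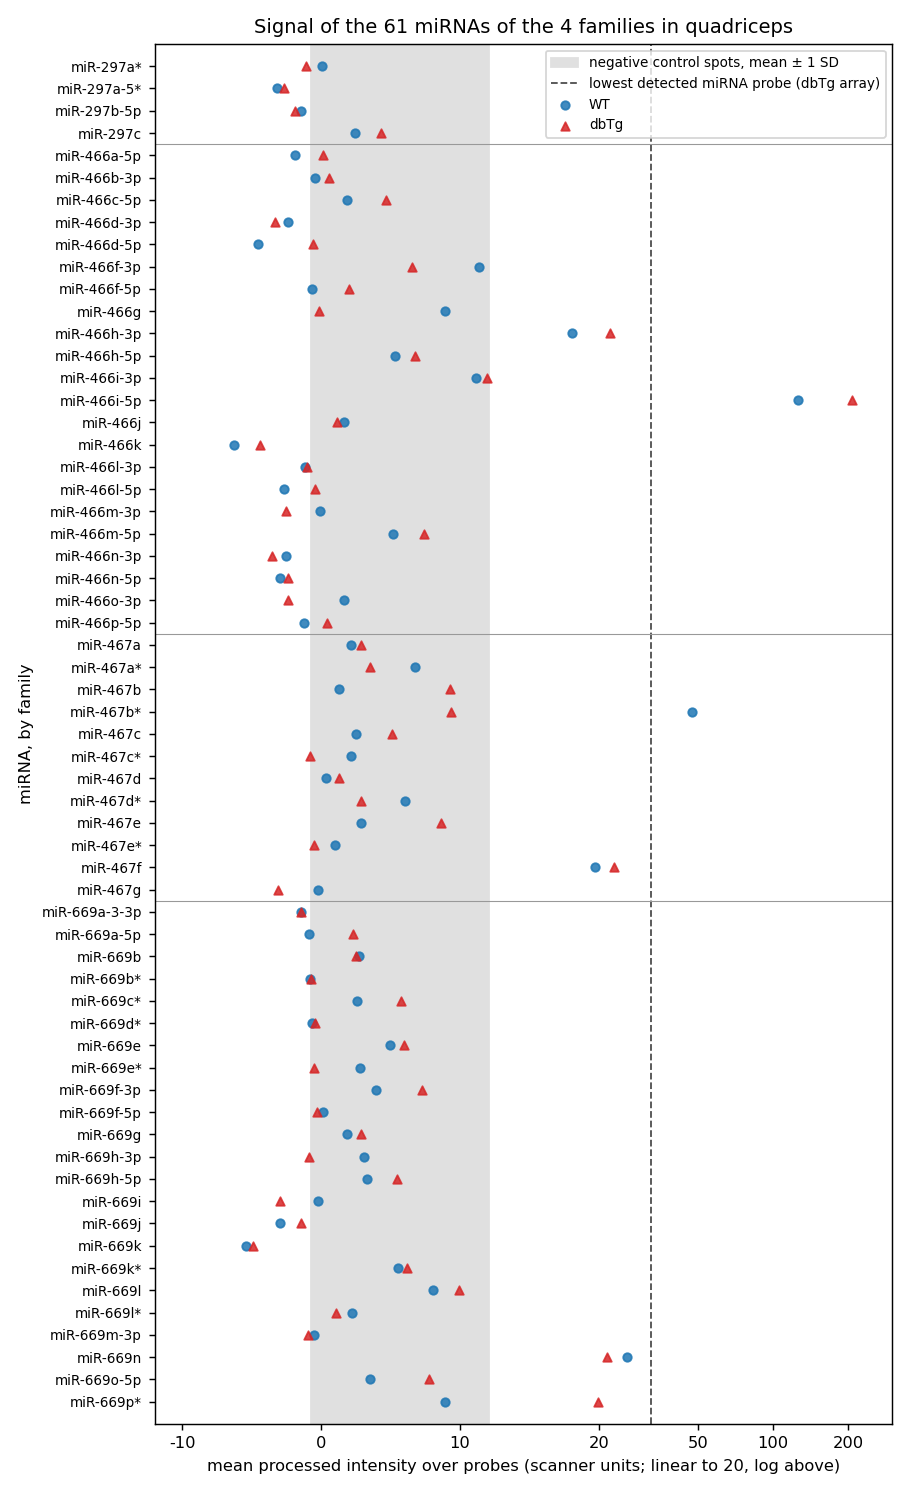
Mean processed intensity of each of the 61 members on the WT array (circles) and on the dbTg array (triangles), in scanner units on an axis that is linear to 20 and logarithmic above. The grey band spans 1 SD either side of the negative control means of both arrays (6.11 on WT and 5.24 on dbTg). The dashed line is the lowest detected miRNA probe of the dbTg array, at 32.3. Only miR-466i-5p (125 and 206) lies beyond the dashed line on both arrays, and miR-467b* (47.2 and 9.37) does so on WT alone.

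The spread of the negative control spots gives the scale for the dark members. On WT, 988 negative control spots had a mean intensity of 6.11 (SD 5.99) and a maximum of 25.4. On dbTg, 984 such spots had a mean of 5.24 (SD 5.99) and a maximum of 21.7. The 59 members detected on neither array had mean intensities from -6.25 to 25.97 on WT, with a median of 1.65, and from -4.92 to 23.1 on dbTg, with a median of 1.08. Of all 61 members, 50 on WT and 42 on dbTg were below the mean of the negative controls. Of the 59 dark members, 15.3% on WT and 28.8% on dbTg were above it. Among the 748 other mouse miRNAs detected on neither array, the shares were 9.22% and 15.1%. The median intensities of those 748 were -1.90 on WT and -0.66 on dbTg. The dark members were thus no dimmer than the other undetected miRNAs by these values. Since none of these 59 members reached detection, no fold between the genotypes was computed for them from the spot intensities in the main setting. Some of them entered only in an alternative without the filter on dim probes, given below.

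By family, all 4 members of miR-297 were undetected, with mean intensities from -3.22 to 2.43 on WT and from -2.68 to 4.28 on dbTg. None of their kept spots, 153 on WT and 152 on dbTg, was well above background. The miR-669 family also had no detected member, with 4 of 889 kept spots well above background on WT and 4 of 890 on dbTg. The miR-466 family had 1 detected member of 22, with 40 of 837 such spots on WT and 41 of 853 on dbTg. The miR-467 family had 1 detected member of 12, with 30 of 460 such spots on WT and 3 of 454 on dbTg. Of the 55 members placed in the Sfmbt2 cluster, 0 were detected on both arrays, 1 on WT alone and 54 on neither. The cluster members had 34 of 2106 kept spots above background on WT (1.61%) and 6 of 2128 on dbTg (0.282%). The 4 probes of miR-467b* held 6, 6, 8 and 9 of these WT spots. Both the cluster count and the miR-467 family count on WT thus rest mostly on 1 miRNA.

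miR-466i-5p, a member from outside the Sfmbt2 cluster, was the only member detected on both arrays. Its 15-base probe had a mean intensity of 114 (SD 13.2, 20 spots) on WT, with spots from 94.5 to 138.8. On dbTg that probe had a mean of 185.6 (SD 13.6, 20 spots), with spots from 163.3 to 207.2. The dbTg spots were all above the WT spots before scaling, as they were for the second probe.

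Its 16-base probe had a mean of 137 (SD 7.67, 19 spots) on WT, from 125 to 156, and of 227 (SD 11.8, 19 spots) on dbTg, from 211 to 249. Every kept spot of both probes was well above background on both arrays. After each array was divided by its 75th percentile, the relative signal was 0.142 on WT and 0.169 on dbTg. The spots of the genotypes then overlapped for both probes, for the 16-base probe in the range from 0.173 to 0.177.

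The log2 ratio of miR-466i-5p, dbTg over WT, was 0.25 (spot SE 0.026), with 0.24 and 0.26 for its 2 probes. This was short of the 2-fold size set for counting a difference. Of the 175 mouse miRNAs detected on both arrays, 136 had a larger absolute log2 ratio, and the median of all 175 was 0.0031. Across the array, 11.4% of the 175 were at least 2-fold higher in dbTg and 10.3% at least 2-fold lower, against 0 higher and 0 lower for the members. With 1 member detected on both arrays, the median of the members is the value of miR-466i-5p. That value was 0.72 with no scaling between arrays and 0.0014 with Feature Extraction's total gene signal, so its size depends on the processing. The other arm of the same hairpin, miR-466i-3p, was below the detection threshold on both arrays, at 11.2 on WT and 11.9 on dbTg.

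miR-467b*, from the Sfmbt2 cluster, was the only member detected on 1 array alone. On WT, its 4 probes from the 13-base to the 16-base one had mean intensities of 38.7 (SD 6.10), 37.7 (SD 11.0), 48.2 (SD 5.80) and 64.2 (SD 8.44), over 9, 10, 8 and 9 spots. Of these spots, 6, 6, 8 and 9 were well above background. On dbTg, the same probes had means of 2.69 (SD 5.72), 5.27 (SD 5.14), 9.21 (SD 3.74) and 20.3 (SD 9.05), over 10, 10, 8 and 10 spots, and 0 were well above background. All 4 probes were thus called detected on WT and none on dbTg.

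The spots of miR-467b* did not overlap between the arrays. For the 14-base probe, the lowest WT spot was at 16.2 and the highest dbTg spot at 11.9. For the 16-base probe, WT spots ran from 53.0 to 79.1 and dbTg spots from 8.61 to 32.2. All 4 probes of miR-467b* had every WT spot above every dbTg spot in relative signal as well. Among the 2645 mouse miRNA probes, 4.61% had every WT spot above every dbTg spot and 5.63% the reverse. Among the 162 member probes the counts were 5 and 0, the fifth being the 17-base probe of miR-466f-3p.

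miR-467b* was at least 1.98-fold lower on the dbTg array. Because it was not well above background on dbTg, that fold is a bound, for which the dbTg side was set at the lowest detected signal there or at the probes' own signal, whichever was higher. The measured mean intensity over its probes was 47.2 on WT and 9.37 on dbTg, or 0.0535 and 0.00768 in relative signal. The bound ran from 1.43-fold with no scaling to 5.51-fold over 10 alternatives. In relative signal, the lowest detected probe was at 0.0392 on WT and at 0.0264 on dbTg. A bound above 1 thus follows largely from the detection rule and was not a separate check. Its sister arm miR-467b, from the opposite side of the hairpin, was not detected on either array, with 1.28 on WT and 9.27 on dbTg.

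**Figure D2:**
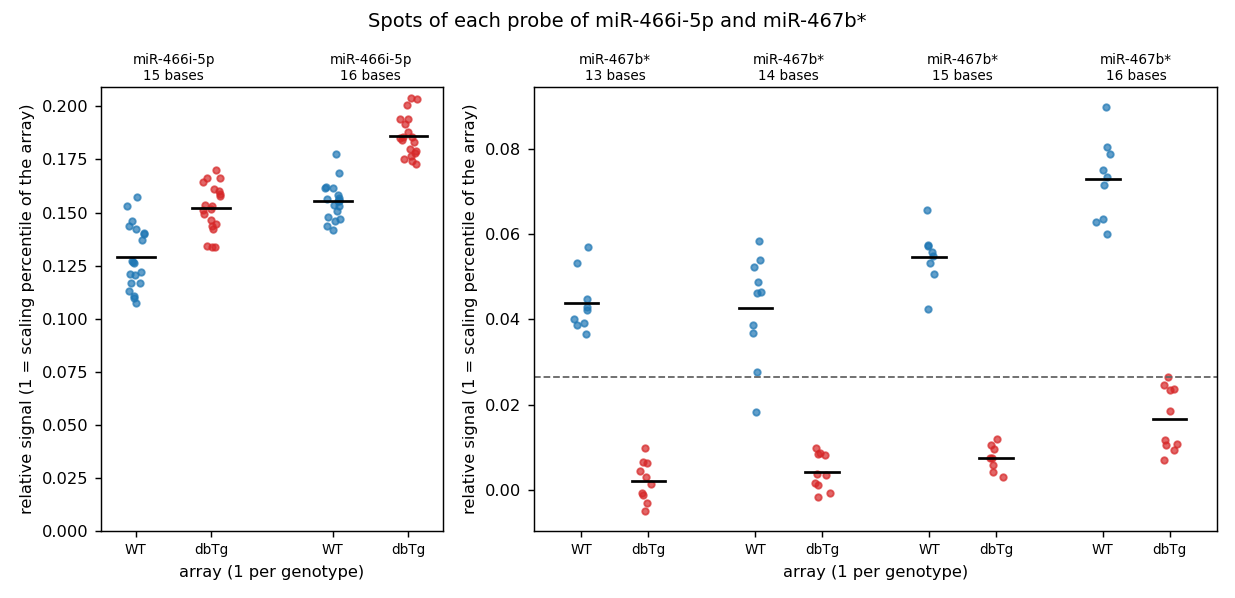
Relative signal (intensity divided by the 75th percentile used for scaling) of every kept spot of the 2 probes of miR-466i-5p on the left and the 4 probes of miR-467b* on the right, by array. Points are spots and bars are their means. The dashed line on the right is the lowest detected signal of the dbTg array, 0.0264. WT and dbTg spots of miR-466i-5p overlap for both probes, and every WT spot of miR-467b* lies above every dbTg spot of the same probe.

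Closely related probes were set side by side, although a pair with both probes dark cannot show what the array separates. Of the 162 member probes, 128, in 53 members, were within 1 mismatch of a probe for another miRNA. Among members, 17 pairs of probes of equal length differed at 1 base, from 10 pairs of miRNAs. The 16-base probes of miR-467b* and miR-467d* are one such pair, T5A counted from the 5′ end of the probe, with the differing base in capitals.
miR-467b*: gtgtTggtgtgtgtat
miR-467d*: gtgtAggtgtgtgtat
All 9 kept WT spots of the miR-467b* probe were well above background, and the miR-467d* probe was not detected on either array. The miR-467d* spots ran from -5.73 to 13.5 on WT and from -11.6 to 11.9 on dbTg, all below the brightest negative control spot of the same array. The call of miR-467b* on WT was therefore not shared by the probe 1 base away. That does not show which RNA the miR-467b* probe bound. Every probe of miR-467b* was also within 1 mismatch of a probe of miR-574-3p. Probes of miR-574-3p had mean intensities from 11.3 to 26.2 on WT and from 3.84 to 18.3 on dbTg, and none was called. Whether the probes of miR-467b* bound miR-574-3p as well was not tested. Leaving out probes within 1 mismatch of another miRNA's probe removes all probes of miR-467b*.

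The members with the highest mean signal among the 59 dark ones were the same 3 on both arrays, namely miR-669n, miR-467f and miR-466h-3p. Their longest probes are shown with the alternating stretch in capitals, beside those of miR-669p* and miR-466f-3p, which were chosen after their values were seen.
miR-669n: acacacatcCACACACAa
miR-467f: tgtagGTGTGTGTGTGT
miR-466h-3p: GTGTGTGTGTGcgt
miR-669p*: atacGTGTGTGTGTGTatg
miR-466f-3p: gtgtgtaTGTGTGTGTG
All of these carry an alternating stretch of at least 8 bases.

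miR-669n, placed on chromosomes 2 and 3, had a mean intensity of 25.97 on WT and 21.6 on dbTg. Of the 19 WT spots of its 18-base probe 4 were well above background, and of the 19 dbTg spots 0 were. In the authors' deposited table miR-669n was 3.50-fold lower on dbTg, without the detection rule used here. Of the 3 members above that table's lowest value on both arrays, 1 was at least 2-fold lower in dbTg and 0 at least 2-fold higher, against 17.7% and 6.77% of the 192 mouse miRNAs above it. miR-467f, placed on chromosome 11, had 19.7 on WT and 23.1 on dbTg, with 1 of 17 and 3 of 16 spots of its 17-base probe above background. Spots of the 2 arrays overlapped for every probe of both miRNAs.

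miR-466h-3p, from the Sfmbt2 cluster, had 18.1 on WT and 22.1 on dbTg. Its 14-base probe had 1 of 20 spots above background on each array. The spots of the arrays overlapped for both of its probes as well.

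miR-669p* had a mean intensity of 8.93 on WT and 19.9 on dbTg. Its 4 probes had 0 spots above background on WT, while the 18-base probe had 3 of 10 on dbTg and the 19-base probe 1 of 10. Spots of the arrays overlapped for all 4 probes. miR-466f-3p had 11.3 on WT and 6.57 on dbTg, with no spot above background on either array. The 17-base probe of miR-466f-3p had a mean of 26.4 (SD 5.66, 10 spots) on WT and 16.7 (SD 3.66, 9 spots) on dbTg. Its spots overlapped before scaling, from 17.2 to 34.5 on WT and from 13.5 to 23.2 on dbTg, and did not overlap in relative signal.

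**Figure D3:**
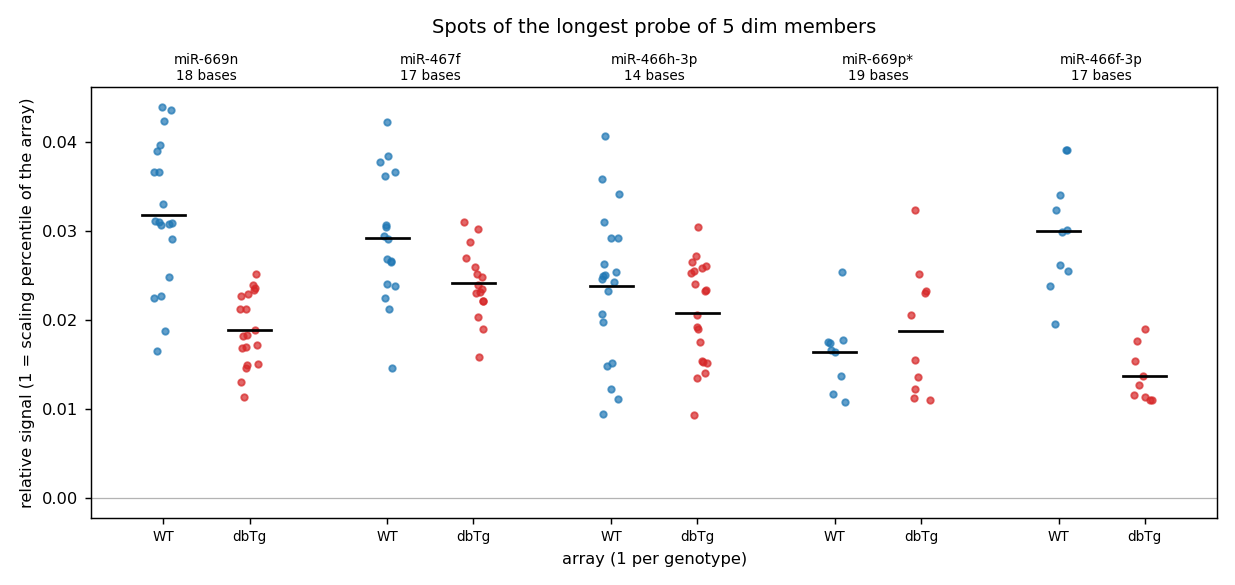
Relative signal (intensity divided by the 75th percentile used for scaling) of every kept spot of the longest probe of 5 members that were detected on neither array. Points are spots and bars are their means. WT and dbTg spots overlap for miR-669n, miR-467f, miR-466h-3p and miR-669p*, and separate for miR-466f-3p.

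Alternating stretches set these probes apart from the rest of the array by sequence. A stretch of at least 8 bases was present in 59 of the 162 member probes (36.4%) and in 12 of 2483 probes of the other mouse miRNAs (0.483%). Member probes whose longest stretch was 1 to 5 bases had 0 of 670 spots above background on WT and 0 of 659 on dbTg. Those with 6 to 7 bases had 6 of 898 and 0 of 914, and those with 8 to 9 bases had 27 of 517 and 0 of 520. All 33 of these WT spots but 4 belonged to miR-467b*, and the 4 to miR-669n. The 14 member probes with 10 to 12 bases, all of G and T, had 2 of 215 spots above background on WT and 9 of 217 on dbTg. The 2 probes with 13 or more bases, both of miR-466i-5p, had 39 of 39 on each array. None of these 14 G and T probes was called detected on either array. Of the other mouse miRNAs, 9 probes had stretches of 8 to 9 bases, all of C and A. Of these, 1 was called on WT and 2 on dbTg, with 17 of 165 and 27 of 170 spots above background. Another 3 probes, of 2 miRNAs, had stretches of 10 to 12 bases, also all of C and A. All 3 were called on both arrays, with 54 of 58 spots above background on WT and 58 of 59 on dbTg. Among the members, C and A stretches of 10 or more bases were found only in the 2 probes of miR-466i-5p, which were called on both arrays.

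**Figure D4:**
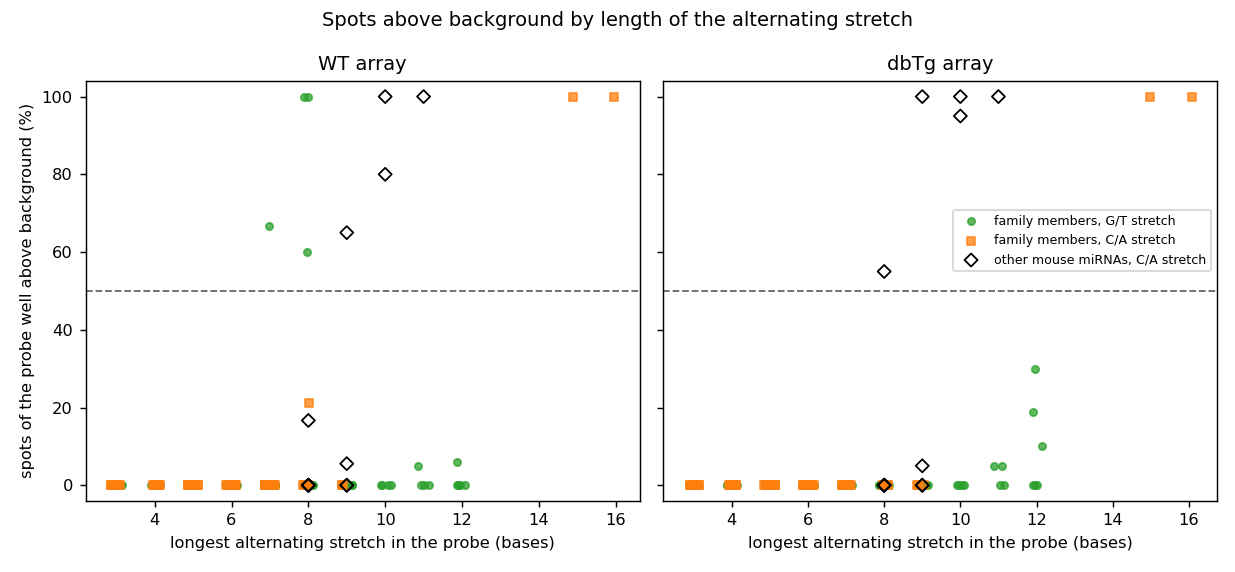
Percentage of a probe's kept spots that were well above background on the WT array (left) and on the dbTg array (right), against the length of the longest alternating stretch in the probe. Circles and squares are the 162 member probes by the kind of stretch, with a small sideways scatter, and open diamonds are the 12 probes of other mouse miRNAs with a stretch of at least 8 bases. The dashed line at 50% is the threshold for a detected probe. On dbTg only the 2 probes of miR-466i-5p exceed it among the members, and on WT the 4 probes of miR-467b* do so too.

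Other mouse miRNAs with GU repeats were compared, because their probes resemble those of miR-466i-5p. Mouse miRNAs outside the families whose RefSeq mature sequence holds 4 UG dinucleotides in a row were miR-574-5p, miR-1187 and miR-3082-5p. Their sequences are shown with the seed in capitals.
miR-574-5p: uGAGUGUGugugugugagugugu
miR-1187: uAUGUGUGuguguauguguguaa
miR-3082-5p: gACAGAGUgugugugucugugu
All 3 were detected on both arrays, and all 3 have a probe within 1 mismatch of a probe of miR-466i-5p. Their log2 ratios were -0.17 (spot SE 0.042), -0.091 (spot SE 0.066) and -0.30 (spot SE 0.102), against 0.25 for miR-466i-5p. Whether the probes of miR-466i-5p bound these miRNAs as well was not tested. Without probes within 1 mismatch of another miRNA's probe, 0 members and 174 mouse miRNAs in all were detected on both arrays. The other mouse miRNAs also numbered 174 in the main setting, so only the members' count changed.

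The imprinted Dlk1-Dio3 region on chromosome 12 holds another large miRNA cluster of the mouse, and the interval around it was compared. The 115 miRNAs of this interval comprised 11 detected on both arrays (9.57%), 1 on WT alone, 3 on dbTg alone and 100 on neither. The median log2 ratio of the 11 was -0.56, with miR-434-3p lowest at -1.67 and miR-342-3p highest at 1.92. The interval is wider than the imprinted region, and miR-342, in an intron of Evl, and miR-345 lie before Dlk1 in it. Without the 4 arms of these hairpins, a choice made after seeing the data, 9 (8.11%) were detected on both arrays. Their median was again -0.56 and the highest value was 0.68, for miR-3072*. The 55 members of the Sfmbt2 cluster had 0 detected on both arrays, so no ratio of that cluster could be set beside it.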

How the data were processed

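Per the file headers, the authors extracted spot intensity values with Agilent Feature Extraction 10.7.3.1, with background subtraction and spatial detrending and no scaling between arrays. RNA was labelled with Cy3, per the labels' protocols. Control spots and outlier spots (101 and 91 of the members' spots on WT and dbTg) were left out. No miRNA spot was saturated. Processed signals were averaged per probe, and log2 ratios were averaged over the probes of a miRNA that both arrays detected. Scaling used the 75th percentile. The number of arrays limits the precision. A size of 2-fold was used for counting. Named members were those detected on an array and the 3 dark ones with the highest signal on each array. miR-669p*, miR-466f-3p, miR-466b-3p, the arms paired with detected members, the 6 with RefSeq sequences and the pair of probes 1 base apart fall outside this rule. Members, lists and rules were chosen with earlier results of these data known. Probe sequences and mm9 positions are the files' own. Names are those of the array design. Alternatives covered scaling, background correction (normexp, limma 3.58.1 in R 4.3.3, offset 50), probe choice, signal and filters. Python 3.11.15, pandas 2.3.3 and numpy 2.4.6 were used, and the calculation was tested on simulated data.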

Additional observations from a re-analysis of the deposited data

How the results depend on the processing

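No paired analysis was possible because each genotype has 1 array. For the same reason no replicate could be left out. The count of members at least 2-fold higher in dbTg was 0 under all alternatives run. Without a filter on dim probes, 1 member (miR-467b*) was at least 2-fold lower. Over all mouse miRNAs, 24 were at least 2-fold lower and 43 at least 2-fold higher in that setting. The members' count at least 2-fold lower was otherwise 0, except in 1 alternative chosen after seeing the data. That alternative took the authors' values above the lowest on both arrays for 3 members, without the detection rule. Its count was 1 (miR-669n), beside 17.7% of 192 mouse miRNAs, and its median -0.45, beside -0.17. The planned settings with the authors' values and the total gene signal kept the detection rule, so miR-466i-5p was the only member in them. Members detected on both arrays numbered 3 with Feature Extraction's own gene flag (miR-466i-5p, miR-467f and miR-669n) and 0 without probes within 1 mismatch of another miRNA's probe. That last setting left no member with a ratio. Over all mouse miRNAs, the gene flag marked 192 on both arrays, against 175 detected on both in the main setting. Without probes within 1 mismatch the number was 174, the same as that of the other mouse miRNAs in the main setting. The median log2 ratio of the members, 0.25 and equal to that of miR-466i-5p, was 0.10 with the 75th percentile of all probes, 0.72 with no scaling, 0.19 with quantile normalization, 0.040 with positive control probes, 0.020 with normexp, 0.0014 with the total gene signal and 0.077 with the authors' values. The median of all mouse miRNAs moved too, to -0.14, 0.47, -0.0041, -0.21, -0.20, -0.22 and -0.14 under these. Without the filter on dim probes, 13 members entered and their median was -0.17, against 0.075 for all mouse miRNAs. All-miRNA counts of higher and lower were 20 and 18 in the main setting, 49 and 8 with no scaling, 10 and 31 with the percentile of all probes, and 7 and 12 with normexp. The cause of these shifts was not tested. Signal over background limits the 59 dark members, for which no fold was computed in the main setting. Dark members among the 13 that entered without the filter have ratios that rest on undetected signal.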

Other observations

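Feature Extraction's own gene flag marked 5 members on each array and 7 in all. The 3 marked on both were miR-466i-5p, miR-467f and miR-669n. miR-466f-3p and miR-467b* were marked on WT alone, and miR-466h-3p and miR-669p* on dbTg alone. Over all mouse miRNAs, 202 were marked on WT and 249 on dbTg.

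In the authors' deposited table the same 7 members were above the lowest value of their column on at least 1 array, and the other 54 were at the lowest value on both. Its values are linear, and no source used here gives its scaling between arrays. The lowest value, which is also the column median, was 0.00135 for WT and 0.00065 for dbTg. In the authors' deposited table miR-466i-5p had 0.954 on WT and 1.006 on dbTg, and miR-467b* had 0.359 on WT and the lowest value on dbTg. In the authors' deposited table miR-669n had 0.198 on WT and 0.0564 on dbTg, 3.50-fold lower, and miR-467f had 0.0982 and 0.0719. miR-466f-3p had 0.0503 on WT alone in the deposited table, while miR-466h-3p had 0.0621 and miR-669p* 0.0579 on dbTg alone.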
